A study of Mus musculus with 4 samples.

Results

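Long intergenic noncoding RNAs (lincRNAs) were examined in polyA RNA-seq of regulatory T cells, a lineage of CD4 T cells that dampens immunity and needs the transcription factor Foxp3. The genes were selected on their annotation and their level. Every transcript of the gene had to carry the label lincRNA in the deposited transcript table, and the gene had to reach 2 TPM in each of the 4 libraries. TPM is a read count divided by the length of the transcript and scaled so that each library has the same sum. Of 55450 annotated genes, 5844 had only lincRNA transcripts, and 175 of those met the threshold. These 175 genes are called members here. At the same threshold stood 10593 genes of any kind and 9149 nuclear protein-coding genes.

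All 4 libraries belonged to 1 group: inflammation-experienced regulatory T cells of 1 male adult mouse of 6 months, from a cross of Foxp3CreERT2 with Rosa26YFP. The Foxp3 gene drives a tamoxifen-inducible Cre in such mice and Rosa26 carries a fluorescent reporter, so the group is a reporter-bearing population with no unlabelled or uninflamed counterpart. By their labels the 4 libraries are technical repeats of a single biosample, and the same labels trace the cells to a bone marrow haematopoietic cell. With a single group there was no comparison of conditions, and any spread or test below is between libraries of that biosample and may be technical. The gene tables held between 6643540 and 9334621 expected counts, and library 4 was the shallowest. Of the fixed marker genes, all 7 of T cells and regulatory T cells reached 1 TPM in each library, with Foxp3 at 20.3, 21.7, 32.8 and 36.4 TPM in libraries 1 to 4. B and plasma cell markers summed to between 795 and 1401 TPM, most of it Ighm, and 5 of 6 reached 1 TPM in each library. Erythroid and megakaryocyte markers summed to 1067 TPM in library 1 and to 4.91, 38.7 and 17.5 TPM in libraries 2 to 4, and the part of this difference in the values below was not tested. No marker of dendritic cells, granulocytes, stem and progenitor cells or stromal and endothelial cells reached 1 TPM in each library. CD8 and cytotoxic markers summed to between 136 and 233 TPM, most of it Nkg7. NK and innate lymphoid markers summed to between 2.29 and 21.7 TPM, and monocyte and macrophage markers to between 12.4 and 48.0 TPM.

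LincRNAs are transcribed by RNA polymerase II from loci between protein-coding genes, and many are capped, spliced and polyadenylated without encoding a long protein. Some build nuclear bodies, some act on neighbouring genes, and some serve as the primary transcript from which microRNAs or small nucleolar RNAs are cut. In lymphocytes the best known of the last kind give rise to miR-155, miR-142 and the miR-17-92 cluster, which set the survival, activation and differentiation of T cells.

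The microRNA hosts among the members are shown first by the RNAs that they carry, because the mature products are what these genes are known for. Of the members, 9 contained an annotated microRNA gene, and RefSeq (GRCm38.p6) held mature sequences for 8 of them. The seed, bases 2 to 8 from the 5′ end, which pairs with target messages, is in capitals.
mmu-miR-142a-5p of Mir142hg: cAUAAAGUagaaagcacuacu
mmu-miR-142a-3p of Mir142hg: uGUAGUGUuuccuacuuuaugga
mmu-miR-155-5p of Mir155hg: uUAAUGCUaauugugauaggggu
mmu-miR-17-5p of Mir17hg: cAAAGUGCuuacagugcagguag
mmu-miR-20a-5p of Mir17hg: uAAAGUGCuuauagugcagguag
mmu-miR-18a-5p of Mir17hg: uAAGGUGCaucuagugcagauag
mmu-miR-19a-3p of Mir17hg: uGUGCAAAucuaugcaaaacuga
mmu-miR-19b-3p of Mir17hg: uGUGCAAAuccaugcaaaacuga
mmu-miR-92a-3p of Mir17hg: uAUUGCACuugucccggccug
In the Mir17hg cluster, miR-17-5p and miR-20a-5p share the seed AAAGUGC and miR-19a-3p and miR-19b-3p share GUGCAAA. The miR-142a-3p letters lie on the plus strand at chr11:87756903-87756925 and those of miR-155-5p on the plus strand at chr16:84714143-84714165 (GRCm38.p6).

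Mir142hg, whose product is known from blood cells, stood at 58.4, 25.3, 33.8 and 81.7 TPM in libraries 1 to 4. Libraries 1 and 4 were high, libraries 2 and 3 low, and the gene had a mean of only 33.8 expected counts on its single transcript of 269 bases. Its mean of 49.8 TPM was next to that of Snhg20, the host of Mir6516, which was steadier at 54.8, 49.0, 49.3 and 44.8 TPM, and the order of these 2 differs between libraries. The table made from the reads, described below, gave it 110 ± 49.4 TPM, more than 2-fold as much. Mir155hg, the host of a microRNA induced when lymphocytes are activated, stood at 20.3, 20.2, 18.98 and 32.4 TPM, with library 4 above the other 3, which lay close together. Mir17hg was near the threshold at 2.98, 2.38, 3.43 and 3.40 TPM, while Ftx, the host of miR-374b and miR-421 within the X inactivation centre, had 14.5 ± 1.48 TPM (SD, n = 4). The microRNA genes themselves are listed at 0 TPM in every library for 14 of the 15 hosted. Of these 14, 4 are above 0 in the table made from the reads. Mir421 was highest there, at 7.45 TPM as deposited, before the scaling described below. The exception, Mir6516 in Snhg20, rested on a mean of 0.565 expected counts. The labels give the libraries a size range of 100 to 300 bp, and the RNA was selected for polyA. RNAs as short as these are therefore poorly covered, and a level of 0 does not show that they were absent.

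The levels of the members ran over several orders of magnitude, and few genes held most of the signal. The median member had 9.29 ± 1.04 TPM (SD of the library medians, n = 4), against 23.1 ± 1.48 TPM for nuclear protein-coding genes past the same threshold. Of the 175 members, 94 had a mean below 10 TPM, 14 reached 50 TPM, 10 reached 100 TPM and 3 reached 1000 TPM. Together they summed to 21877 ± 5517 TPM, of which the 15 highest members held 19956 ± 5393 TPM. In counts, the members took 1.33 ± 0.351% of all expected counts of annotated genes. Because the threshold chose the members, these levels are a description. In bulk RNA, fewer cells with an RNA and less of it per cell cannot be told apart.

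**Figure D1:**
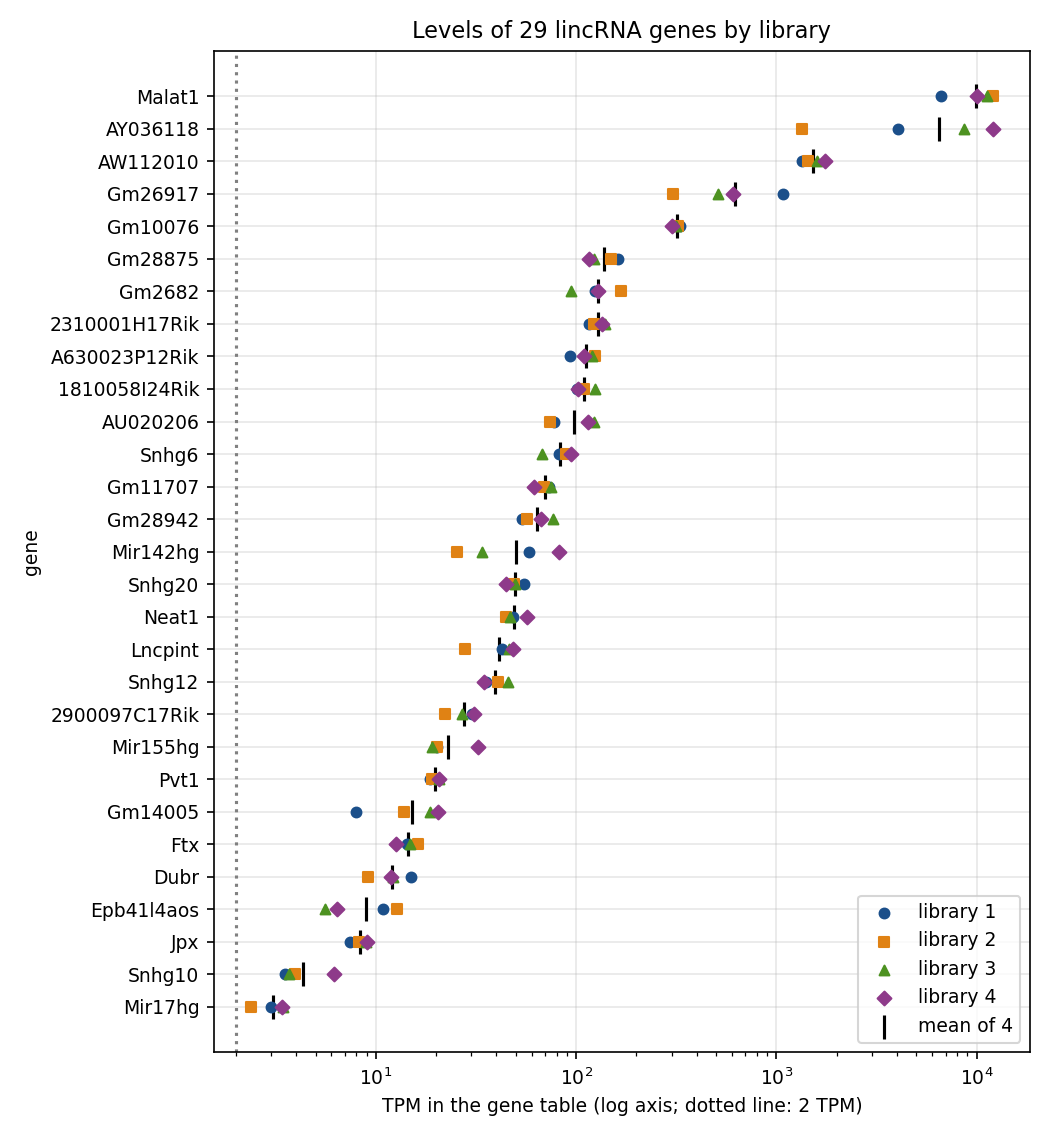
TPM of 29 members (horizontal log axis) in each of the 4 libraries (symbols) with their mean (bar), for the 15 highest members and all members on the list of known long noncoding RNAs. Malat1 and AY036118 lead, AY036118 spans from 1337 TPM in library 2 to 12026 TPM in library 4, and Mir17hg lies next to the dotted line at 2 TPM.

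Malat1, the abundant RNA of nuclear speckles, was the highest member. It is annotated on the minus strand of chromosome 19 at chr19:5795690-5802672 (mm10, GENCODE M21). Its level was 6679, 12030, 11211 and 10018 TPM in libraries 1 to 4, a mean of 9985 ± 2353 TPM, and library 1 was the lowest.

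That level rested on a short transcript. The table lists 4 Malat1 transcripts, among them the full-length Malat1-201 of 6983 bases and Malat1-203 of 485 bases. Malat1-203 had 6512, 11754, 10890 and 9728 TPM, and Malat1-201 had 167, 276, 319 and 289 TPM, so the 2 transcripts did not overlap in any library. In expected counts the gap was small: a mean of 21525 counts went to Malat1-203 and 12521 to Malat1-201, and the division by length made the difference in TPM 37.0-fold. The table made from the reads also put most of the gene on Malat1-203, with 71.2 ± 2.43% of its estimated counts. Malat1-203 starts at base 2 of Malat1-201 and ends at base 757, with 271 bases spliced out between. Of its 455 words of 31 bases, 429 also occur in Malat1-201, so only 26 words separate it from the full-length RNA. With all counts of the gene placed on the full-length transcript, Malat1 would have 709 ± 164 TPM and would be the third member by level.

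The ends of the 2 Malat1 transcripts and of other high members are shown because polyA selection captures RNAs with a tail. The tail is commonly, but not always, added downstream of a hexamer such as AATAAA or ATTAAA. Whether an RNA shown here carries a tail was not tested. The last 60 bases follow for the transcript with the most counts of each gene and for Malat1-201, with the hexamer in capitals.
Malat1-203: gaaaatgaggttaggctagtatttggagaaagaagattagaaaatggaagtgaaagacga
Malat1-201: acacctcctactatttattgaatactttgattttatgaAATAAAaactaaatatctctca
Neat1-202: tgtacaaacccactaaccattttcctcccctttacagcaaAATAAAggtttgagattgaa
AW112010-202: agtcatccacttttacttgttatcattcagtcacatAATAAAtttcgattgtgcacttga
Mir142hg-201: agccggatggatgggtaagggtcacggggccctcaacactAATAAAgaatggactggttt
Gm2682-203: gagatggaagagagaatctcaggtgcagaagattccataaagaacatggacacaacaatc
Malat1-201 ends on the minus strand at chr19:5795690-5795749 and AW112010-202 on the minus strand at chr19:11047612-11047671 (mm10). Neither Malat1-203 nor Gm2682-203 holds the hexamer there. Searched on the transcript strand in the last 50 bases of the leading transcript, AATAAA or ATTAAA occurred in 87 of 175 members (49.7%), in 2287 of 5669 other lincRNA genes (40.3%) and in 6768 of 9149 protein-coding genes past the threshold (74.0%). A match describes letters only. For the 4240 lincRNA genes at 0 TPM in all libraries, the longest transcript stood for the leading one, so that share is not strictly comparable.

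Neat1, the RNA that scaffolds paraspeckles, lies next to Malat1 at chr19:5824708-5845478, and its level also depended on the transcript length used. Its level was 48.5, 44.7, 46.5 and 56.6 TPM, with all libraries close together. The 3004-base transcript Neat1-202 held 46.1 ± 5.32 TPM of it and the 20771-base Neat1-201 held 1.503 ± 0.317 TPM. Neat1-202 also had the most counts of the gene. On the longest transcript Neat1 would have 7.89 ± 1.02 TPM, 6.22-fold less than deposited. Of the 175 members, 24 stood at least 2-fold and 6 at least 5-fold above the level that their counts give on the longest transcript. On that measure 163 members would still reach 2 TPM in each library, and 13 of the 15 highest members would be among the 15 highest. By expected counts, with no division by length, 9 of the 15 highest members by TPM would be among the 15 highest.

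**Figure D2:**
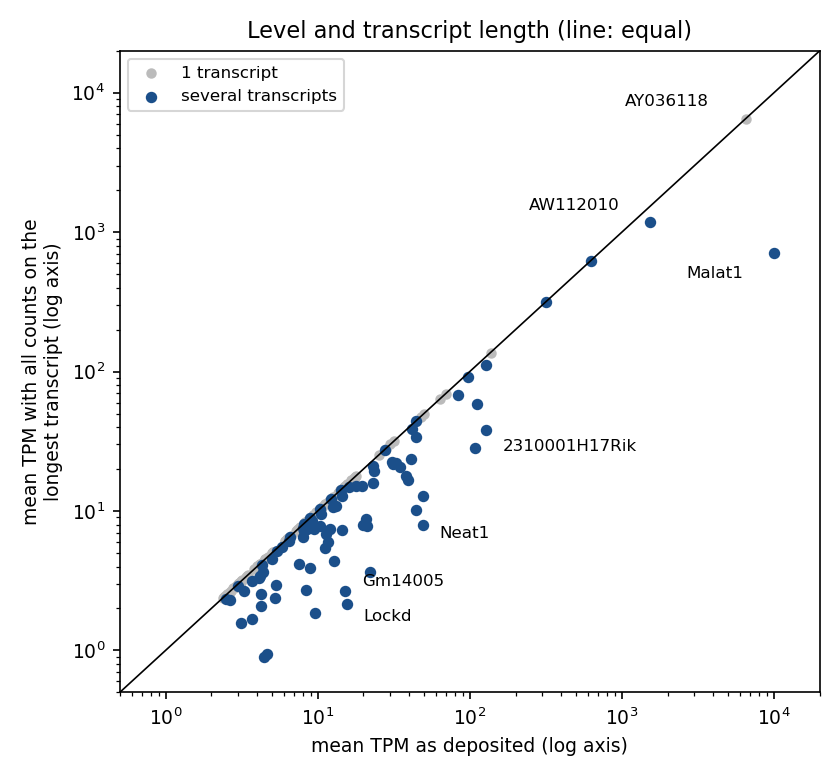
Mean deposited TPM of each member (horizontal log axis) against the mean TPM with all its counts on its longest transcript (vertical log axis), with genes of 1 transcript in grey and of several in blue. Malat1 falls from 9985 to 709 TPM and Neat1 from 49.1 to 7.89 TPM, while members of 1 transcript stay on the line.

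Part of the signal under the label lincRNA came from an rRNA locus. AY036118, Gm42418 and Gm26917 lie together on chromosome 17 at an annotated ribosomal RNA gene, CT010467.1 (chr17:39846353-39848827, minus strand, mm10). Ribosomal RNA carries no polyA tail in general and is what polyA selection is meant to leave behind. AY036118 (chr17:39847113-39848035, minus strand) lies inside CT010467.1, and 100% of its 31-base words occur in it, so the tables can divide the same reads between the 2 genes. Gm42418 overlaps CT010467.1 on the opposite strand, and RefSeq names it Rn18s-rs5, a pseudogene. Gm26917 (chr17:39843013-39846341, plus strand) ends just before it and shares no 31-base word with it.

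AY036118 was the second highest member and the most uneven, at 4064, 1337, 8650 and 12026 TPM in libraries 1 to 4. Library 2 was lowest and library 4 highest, 8.01-fold apart in scaled counts. CT010467.1 stood at 9852, 4611, 10235 and 8972 TPM and was also lowest in library 2. Gm26917 had 1076, 306, 513 and 605 TPM, again lowest in library 2 but highest in library 1. Gm42418 was even, at 54.4, 45.3, 47.9 and 42.7 TPM. The 3 genes summed to 7192 ± 4775 TPM. Without them the other 172 members summed to 14685 ± 2493 TPM and their median was 9.06 TPM.

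Without Malat1 as well, the sum over the remaining 171 members was steady. They summed to 4371, 4515, 4809 and 5108 TPM in libraries 1 to 4, a mean of 4701 ± 327 TPM. Library 4 was highest and library 1 lowest, with a range far narrower than that of Malat1 or of the rRNA locus. AW112010 alone held a mean of 1531 TPM of this sum. Many single members differed between libraries, as described below.

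**Figure D3:**
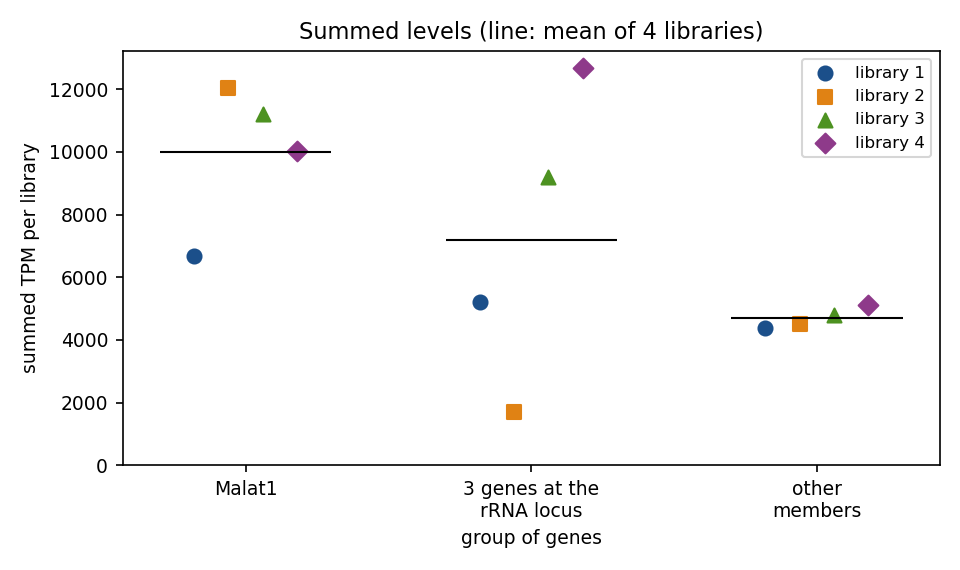
Summed TPM per library (symbols, vertical axis from 0) for Malat1, the 3 genes at the rRNA locus and the 171 other members, with the mean of 4 libraries as a line. The rRNA locus spans from 1688 TPM in library 2 to 12674 TPM in library 4, whereas the 171 other members stay between 4371 and 5108 TPM.

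AW112010, an RNA known from activated and infected immune cells, was the highest member that lies outside that locus and keeps its level on the longest transcript within 2-fold. It lies at chr19:11047612-11055808 (minus strand, mm10) and stood at 1337, 1432, 1598 and 1756 TPM, with library 1 lowest and library 4 highest, 1.32-fold apart in scaled counts. Its 625-base transcript AW112010-202 held most of it, at 1467 ± 181 TPM, and ends with the hexamer shown above. No 31-base word of its leading transcript occurs in another gene, and its level in the reads table, 1512 TPM after scaling, differed by less than the spread between libraries.

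Gm10076, at 330, 324, 317 and 300.1 TPM, was the most even of the high members. Its 384-base transcript equals a transcript of Rpl41, which encodes a ribosomal protein and stood at 4571 TPM, at 381 of 384 bases, and RefSeq lists Gm10076 as a pseudogene. The stretch below, at chr14:105681869-105681946 on the plus strand (mm10), has no differing base over the 78 coding bases of Rpl41, stop codon included, and is shown because a read from within it could come from either gene.
Gm10076 over the Rpl41 coding sequence: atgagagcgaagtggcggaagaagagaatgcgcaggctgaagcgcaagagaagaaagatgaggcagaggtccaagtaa
The assignment of reads to Gm10076 is therefore uncertain, and the older count table below gives it another value.

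The other members among the 15 highest were mostly uncharacterised. Gm28875 had 137 ± 21.2 TPM, Gm2682 had 129 ± 30.0 TPM and A630023P12Rik had 112 ± 13.6 TPM (SD, n = 4). Gm2682 was high in library 2, at 168 TPM, and low in library 3, at 94.4 TPM. In the reads table Gm2682 had 200 ± 31.2 TPM. 2310001H17Rik, which lies in the natural killer receptor region of chromosome 6 with Cd69 as its nearest coding neighbour, had 128 ± 11.3 TPM and 199 ± 21.1 TPM in the reads table. 1810058I24Rik had 109 ± 10.5 TPM and is protein-coding in RefSeq. AU020206 had 77.5, 74.5, 122 and 115 TPM, with libraries 3 and 4 above libraries 1 and 2. Gm11707 and Gm28942 had 69.7 ± 6.03 and 63.4 ± 10.4 TPM, and the reads table gave Gm28942 125 ± 24.3 TPM.

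RefSeq matched 97 members, and it called 84 of them lncRNA, 10 protein-coding and 3 pseudogenes of some kind. Tmem250-ps, at 44.6 TPM, was among the 10, and Gm10076, Gm42418 and 4632415L05Rik were the 3.

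Known long noncoding RNAs were then read from a list of 76 names. A gene of that symbol was in the annotation for 63, of which 18 were members, 13 were lincRNA genes below the threshold and 32 carried other transcript labels. By RefSeq's names, 2900097C17Rik is Norad and Gm14005 is Morrbid. Of the 13 below the threshold, Xist, which silences the inactive X chromosome in female cells, ranged from 0.020 to 0.19 TPM in these male cells, Meg3 had at most 0.030 TPM, and H19 and Hotair are listed at 0.

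The hosts of small nucleolar RNAs, which guide the modification of ribosomal RNA, spread widely in level. Snhg6 had 83.4 ± 11.6 TPM, Snhg20 had a mean of 49.5 ± 4.08 TPM and Snhg12 had 39.1 ± 5.25 TPM. Snhg10 had 4.33 ± 1.23 TPM against 8.18 ± 2.23 TPM in the reads table. With all counts on the longest transcript, the means of Snhg6, Snhg20, Snhg12 and Snhg10 would be 68.4, 12.7, 16.7 and 4.11 TPM. In Snhg6, library 3 was low at 67.9 TPM and the other 3 libraries lay between 81.8 and 94.5 TPM. Of the 11 small nucleolar or Cajal body RNA genes that members contain, 9 are listed at 0 TPM in every library of the gene tables. The reads table differs: 7 of those 9 are above 0 there, and Snord87 of Snhg6 had 112 TPM as deposited, before scaling. In the gene table Snord87 had a mean of 0.25 expected counts. These short RNAs are also poorly covered by polyA libraries of 100 to 300 bp. Neither the values of 0 nor the difference between the tables measures their amount.

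Other known members came from the X inactivation centre and from loci of cell growth control. Jpx, an activator of Xist, had 8.37 ± 0.742 TPM beside the 14.5 TPM of Ftx. Pvt1, the neighbour of Myc, had 18.7, 19.2, 20.6 and 20.7 TPM and was even across libraries. Norad, which holds Pumilio proteins in the cytoplasm, had 27.5 ± 3.91 TPM, with 43.9% of its 31-base words also in the gene Gm7292, and Lncpint, a target of p53, had 41.3 ± 9.23 TPM with library 2 low at 27.9 TPM. Dubr had 12.02 ± 2.40 TPM. Epb41l4aos had 8.90 ± 3.48 TPM, and 20.3 ± 4.10 TPM in the reads table. Morrbid, an RNA from the region of the pro-apoptotic gene Bcl2l11 known from short-lived myeloid cells, had 7.91, 13.8, 18.6 and 20.4 TPM, with library 1 the lowest. It rested on a mean of 30.8 expected counts. On its longest transcript it would have 1.44, 2.44, 3.31 and 3.55 TPM, and would miss the threshold in library 1.

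At the threshold itself the choice of members is fine-grained. Just above it by their lowest library stood 5033430I15Rik and 2210417A02Rik at 2.02 TPM, Gm33782 at 2.03, Gm32633 at 2.04 and Gm49539 at 2.06 TPM. Just below stood Gm47418 and A330069E16Rik at 1.97 TPM, Gm2800 at 1.96, Gm19951 at 1.93 and 4930558J18Rik at 1.89 TPM. The members near it rest on few reads: 60 of the 175 had a mean under 50 expected counts.

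Transcript structure differed from that of coding genes past the same threshold. The leading transcript of a member had a median length of 1317 bases and 2 exons, against 2333 bases and 8 exons for the coding genes and 928 bases and 3 exons for other lincRNA genes. Of the members, 29 (16.6%) had 1 exon, against 2.51% of the coding genes and 6.28% of the other lincRNA genes. An open reading frame of at least 100 codons was present in 35 members (20%) and in 14.1% of other lincRNA genes. These are descriptions, and length enters TPM directly. Of the other lincRNA genes, 4240 had 0 TPM in all libraries, and their longest transcript was taken as the leading one. The contrast with members, whose leading transcript was chosen by TPM, is thus between unlike choices.

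Several transcripts were annotated for 84 members, up to 16 in Lncpint, and 91 had 1. In the 84, the leading transcript held a median of 77.8% of the gene's TPM, with at least 90% in 22 genes and under 50% in 13. Its share varied between libraries by a median SD of 6.14 percentage points. The table made from reads gave the same leading transcript for 74 of the 84.

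The 10 members with another leading transcript included RNAs with known roles. In Ftx, the transcript Ftx-201 had the highest mean in the gene table, 25.8 ± 10.5% of TPM, although Ftx-204 was above it in libraries 1 and 4, and it held 0% in the reads table, where Ftx-212 led with 60.2%. In Lockd, which lies downstream of the cell cycle inhibitor gene Cdkn1b, Lockd-203 held 92.6 ± 2.02% against 33.5% in the reads table, and Lockd-205 led there with 43.7% against 0% in the gene table. By counts both tables put the 5662-base Lockd-201 first, with 53.5 ± 7.26% and 77.1 ± 3.19%, so the leader there depends on the division by length. In 5 of the 10 members, Lockd, 2310001H17Rik, Gm47469, Gm13842 and Gm7967, the 2 tables shared the leader by counts. In Dubr, Dubr-201 held 31.8% against 11.3%. Lncpint split into many transcripts in both tables, led by Lncpint-215 at 23.4% in the gene table and by Lncpint-214 at 21.2% in the reads table, so the call there rests on a small margin. For 2310001H17Rik the leaders were 2310001H17Rik-201 at 37.0% and 2310001H17Rik-205 at 41.2%. The others were Gm46430, Gm47469, Gm13166, Gm13842 and Gm7967.

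Agreement between quantifications was examined next. Each library also had a transcript table made from the reads, here the reads table, and its TPM were summed per gene and scaled to the same total over nuclear protein-coding genes. Across the 175 members the 2 tables ranked genes with a Spearman rho of 0.882, against 0.980 across protein-coding genes past the threshold; the points share their reads, and genes are not independent replicates. The median member was lower in the gene table by 0.19 on the log2 scale (−0.19 ± 0.028, n = 4), and the median protein-coding gene was higher (0.16 ± 0.0087).

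In all 4 libraries, 18 of 175 members were at least 2-fold apart, on the scale of log2(TPM + 0.1), where 2.94% of all genes past the threshold were. Of these, 17 were lower in the gene table, where the background is 1.72%, and 1 was higher, where it is 1.22%. Among coding genes past the threshold, 69 of 9149 were lower. The split depended on scaling: with TPM as deposited, 8 members were lower and 11 higher in the gene table. The gene table entered the rule, so the direction of the difference is a description.

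**Figure D4:**
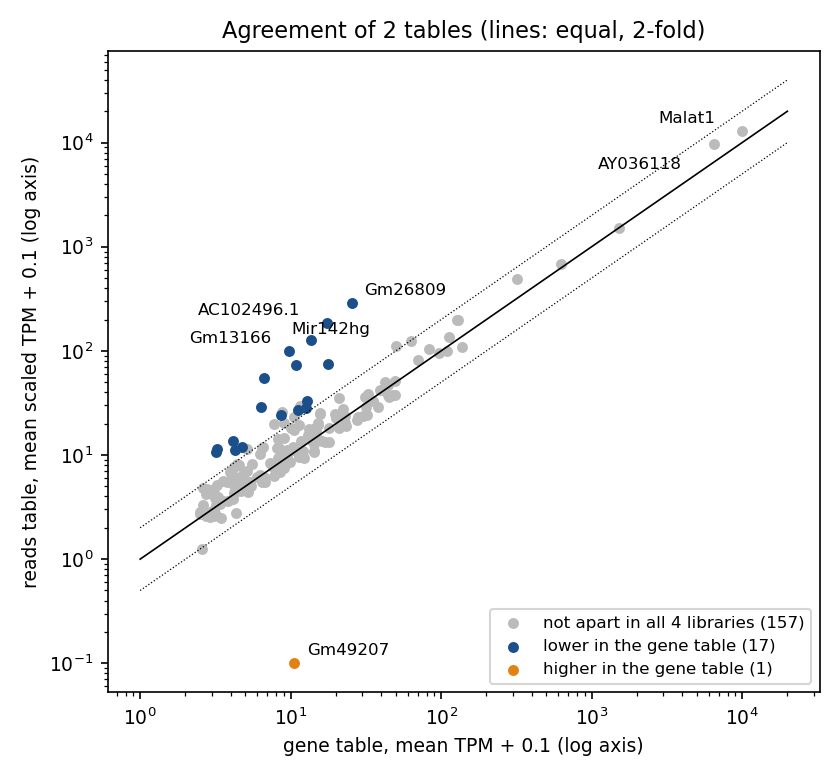
Mean TPM + 0.1 of each member in the gene table (horizontal log axis) and in the reads table after scaling (vertical log axis), with a line of equality and dotted lines at 2-fold. The 17 members lower in the gene table lie above the upper dotted line, led by Gm26809 at 25.3 against 285 TPM, and Gm49207 alone lies at the bottom, with 10.5 against 0 TPM.

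The members lower in the gene table were little-known genes. Gm26809 had 24.9, 27.2, 24.9 and 24.2 TPM in the gene table and 285 ± 13.2 TPM in the reads table. AC102496.1 had 17.4 ± 2.77 against 185 ± 30.3 TPM, Gm12840 had 13.5 ± 2.58 against 128 ± 9.57 TPM, and Gm13166 had 9.67 ± 5.42 against 99.8 ± 10.8 TPM. In each of them the 2 tables did not overlap in any library. Gm4316, at 6.57 against 54.4 TPM, and Gm26909, at 10.8 against 73.1 TPM, completed the 6 with the largest ratio.

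The share of a member's 31-base words that occur in another gene was higher in these 17. Its median was 17.9% on the same strand and 46.1% on both strands, against 0.156% and 4.20% in the 157 members that were not apart. Gm12840 shares 59.8% of its words with another member, Gm20186, and AC102496.1 shares 41.2% with Gm42427. A730063M14Rik, Gm47242 and Gm29243 share no word with another gene, and had means of 10.5, 6.75 and 5.50 expected counts. The difference was not tested, since both tables are of the same reads. Over all members, 78 shared no word on the same strand, 12 shared at least 50% and the median was 0.438%.

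Gm49207 was the member higher in the gene table, at 11.2, 9.54, 11.7 and 9.56 TPM, and it is listed at 0 in every library of the reads table. It is a single exon of 279 bases on the plus strand at chr15:7760714-7760992 (mm10). At 266 of 267 aligned bases it equals the end of a transcript of Ahsa1, an Hsp90 co-chaperone gene at 108 TPM. Its TPM rested on a mean of 8.22 expected counts.

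The deposited whole-number counts on the older GENCODE M4 annotation held 6 members and 111 of the 5844 lincRNA genes, so they cover few of them. Divided by length and scaled, they put AW112010 at 1140 ± 161 TPM-scaled units, against 1531 ± 185 TPM. Gm10076 had 17, 17, 17 and 14 counts, where the gene table had a mean of 476 expected counts, and it was higher in the gene table by 5.07 on the log2 scale. 4632415L05Rik was also higher, by 1.33. Thus 2 of 6 members were at least 2-fold higher in the gene table in all libraries, where 14.3% of the matched genes past the threshold were. None was lower, against 1.12%, and 15.4% of matched genes were apart in either direction. Gm11110, Gm20939 and 5830454E08Rik were within 2-fold or not in 1 direction, with mean log2 differences of 0.95, 0.38 and 0.035. How either table treats reads that match several places is not given in the sources used here.

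Spread between libraries beyond counting noise was present in most members. Of 167 members with a mean count of at least 10, 97 differed between libraries by the likelihood ratio test of a Poisson model (Benjamini-Hochberg adjusted p under 0.05), which is 58.1%. In the same test 68.4% of all 13036 genes and 76.2% of nuclear protein-coding genes past the TPM threshold were called. The members had a median of 87 counts among those tested, against 200 for all genes tested and 344 for those coding genes, and fewer counts give fewer calls. The same libraries set the threshold on level, so nothing is read from this difference. The SD of log2 CPM left after the counting variance was removed had a median of 0.233 in the tested members and 0.216 in all tested genes. Of the called members, 25 (25.8%) spanned at least 2-fold, near the 22.4% of all called genes.

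Among the members called as differing between libraries, the most uneven were AY036118 and Gm26917 at the rRNA locus, with 4 genes of lower level. Members that were not called are left out of this ranking. Below a mean of 10 counts, Gm44148 spanned 5.36-fold and was not tested. It had 2.93, 9.43, 15.7 and 6.33 TPM on a mean of 9.09 counts. Gm26520 had 3.05, 8.33, 2.41 and 15.5 TPM, high in library 4 and low in libraries 1 and 3 (adjusted p of the Poisson test 2.4e-25). Gm32633 ran the other way, at 8.86, 9.66, 5.27 and 2.04 TPM, lowest in library 4 (adjusted p of the Poisson test 0.00057). In library 2 stood the highest values of Gm5914 and 5033430I15Rik, 15.6 and 6.24 TPM, which rested on means of 11.1 and 12.5 counts.

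By library, the called members were often lowest in library 1 and highest in library 4. Library 4 was the highest for 42 of the 97 (43.3%), where it was the highest for 19.6% of all called genes. Library 1 was the lowest for 37 (38.1%), against 24.1% of all called genes, and the highest for 8 (8.25%), against 31.2%. Library 1 was the one with the erythroid markers and library 4 the one with the fewest counts. Their part in this was not tested.

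**Figure D5:**
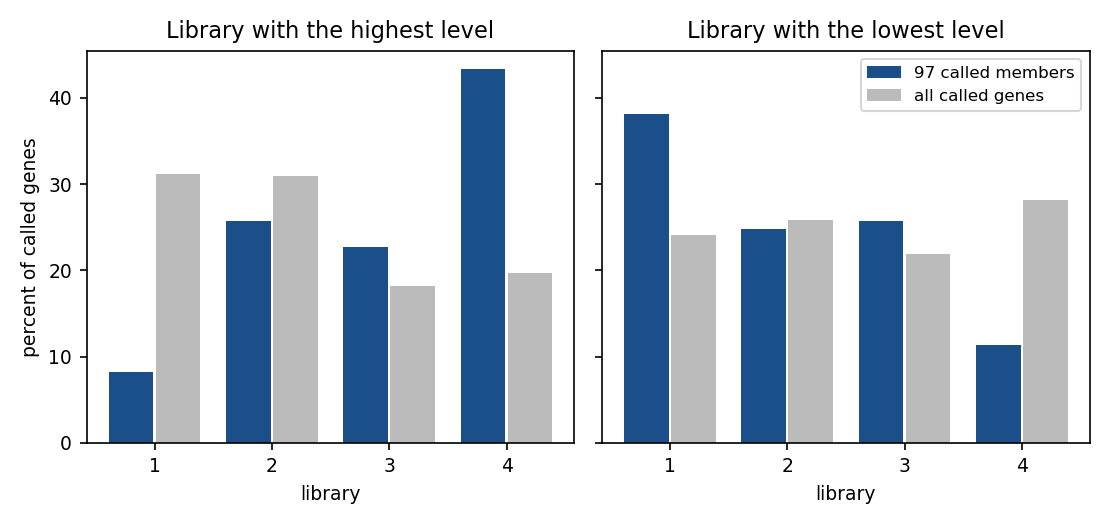
Percent of called genes (vertical axis from 0) for which each library had the highest level (left) or the lowest (right), for the called members in blue and all called genes in grey. Library 4 is highest for 43.3% of members and library 1 lowest for 38.1%.

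Position relative to coding genes was taken from the annotation alone. The median distance from a member's start to the nearest protein-coding start was 25.3 kb. Within 5 kb stood 36 members, 16 of them on the opposite strand and pointing away from the coding gene, the arrangement of a shared promoter region. The span of 55 members overlapped a coding gene, and the exons of 35 overlapped coding exons on the opposite strand. Within the overlap, reads of those 35 cannot be separated from those of their partners if the counting ignored strand. The strand setting is not given in the sources used here. An overlap of any size was counted, and its extent was not measured.

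The coding neighbours of these 36 were often expressed. In 29 of the 36 pairs the coding gene also reached 2 TPM in each library, against 41.7% of all nuclear protein-coding genes. The members were themselves chosen by level, neighbours of other lincRNA genes were not examined, and some pairs share a coding gene. Nothing is read from this difference. In 13 of the 36 pairs the member was the higher of the 2 on the TPM scale. Among the highest were Mir142hg, 4964 bases from the start of Tspoap1, which had 1.41 TPM, and 1300002E11Rik at 44.3 TPM, 28 bases from Map3k13, which had 0.338 TPM. The second pair shares sequence, since 33.5% of the member's words occur in Map3k13, on the same strand.

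The pairs that follow are the rest of the 10 highest. 9330175E14Rik, at 20.7 ± 0.804 TPM, starts 747 bases from Nlrc5, the activator of class I antigen presentation genes, at 133 ± 28.9 TPM. Gm11110, at 23.0 ± 2.60 TPM, starts 617 bases from Tnfsf9, the ligand of 4-1BB, at 9.55 ± 1.84 TPM. Gdap10, at 14.3 ± 2.71 TPM, starts 2327 bases from Nampt, an enzyme of NAD synthesis, at 23.1 ± 3.94 TPM.

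The remaining pairs included 2 members beside 1 gene. Gm20186, at 14.2 ± 3.07 TPM, starts 372 bases from Lsm8, a splicing factor subunit at 51.9 ± 9.27 TPM, and points away from it, and Gm26809 starts 4359 bases from the same gene. AI480526, at 11.7 ± 2.72 TPM, points away from Setd1b, a histone methyltransferase gene at 12.4 ± 1.59 TPM, and Ino80dos, at 19.6 ± 3.33 TPM, lies beside Ino80d, a subunit of a chromatin remodeller, at 21.1 ± 2.76 TPM. AC158975.2, at 17.5 ± 5.73 TPM, points away from Zfp236 at 12.3 ± 5.08 TPM. Across all 175 members the level showed a Spearman rho of −0.037 with that of the nearest coding gene, a description over genes that share libraries.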

How the data were processed

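The members and gene lists were chosen with earlier results of these data known. Per the file headers, the authors deposited for each library gene and transcript tables of expected counts and TPM with bounds of TPM (a score with no stated level, not used in the text), each transcript's percent of its gene, and for the reads table an estimated count and TPM for every transcript. They also deposited gene counts in whole numbers, on GENCODE M4. The other tables are on GENCODE M21, mm10, per the labels and file headers. No program, aligner or strand setting is given in the sources used here.

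Expected counts were rounded for the test. Rows outside the annotation held 0.199% to 0.576% of counts and were left out. The reads table was scaled by 1.56 to 1.71 per library to equal sums over nuclear protein-coding genes. The M4 counts were divided by the effective length (at least 50 bp). Genes were called apart where log2(TPM + 0.1) differed by at least 1 in all 4 libraries with one sign. Differences between libraries were tested by a Poisson likelihood ratio test with TMM sizes (edgeR 4.0.16, R 4.3.3). Benjamini-Hochberg adjustment ran over all genes whose mean reached 10 counts. The code was run first on simulated Poisson counts. Those counts follow the model of the test, so the run could not show how it behaves with extra spread or uncertain read assignment. DESeq2 1.42.0 gave alternative size factors. The rest ran in Python 3.11.15 (pandas 2.3.3, numpy 2.4.6, matplotlib 3.10.9, scipy 1.17.1). Leading transcripts, distances and 31-base words came from GENCODE M21 and mature microRNAs from RefSeq. Named were the 15 highest members, those on the known list and the 6 most uneven of the members that differed between libraries. Also named were the 6 furthest apart in each direction between tables, 5 on each side of the threshold and up to 10 with another leading transcript. The 10 highest with a coding start within 5 kb were named as well. Other genes named (Gm42418, Tmem250-ps, A730063M14Rik, Gm47242, Gm29243, Gm20939, 5830454E08Rik, Gm44148, hosted RNAs and CT010467.1) were chosen after their values were seen. Counting noise is all that the test's p-values cover.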

Additional observations from a re-analysis of the deposited data

Results flagged for a closer look

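In 4 members a single library stood far from the other 3 by Dixon's test at the 95% level, among 59 sets of 4 values examined; chance flags about 1 in 20. Mir155hg had 32.4 TPM in library 4, and Lockd had 19.06 TPM there. Snhg10 had 6.16 TPM in library 4, on a mean of 10 counts over the libraries. Gm49539 had 4.26 TPM in library 3, on a mean of 6.50 counts.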

How the results depend on the processing

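No paired analysis was possible because there was 1 group. A threshold of 5 TPM in each library left 105 members. The threshold of 2 TPM in the reads table as deposited, before scaling, gave 277. The median level was 11.5 TPM in the reads table and 7.50 with all counts on the longest transcript. Over the 6 members in the older counts it was 6.77 there and 14.2 TPM in the gene table. Members 2-fold apart between the gene and reads tables were 11 higher and 8 lower with TPM as deposited, and 10 in all with 9 lower at 5 TPM. Leaving out each library in turn gave 18 to 21, with 1 to 2 higher (2 without library 1) and 17 to 20 lower. Against the older counts, 1 member rather than 2 was apart, higher in the gene table, when scaled over all matched genes, without length, with a pseudocount of 1 or at 5 TPM. Differing between libraries were 4 of the 6 members in the older counts, and 76 to 89 members with a library left out. A coding start lay within 1 kb of 18 members and within 10 kb of 63. The median share of words in other genes was 2.80% for 21 bases, 0% for 51 bases and 5.36% on both strands. The longest transcript, both strands and leaving out the rRNA locus (94 members then differed between libraries) were chosen after seeing the data. Few counts limit the members near the threshold. The cause of the differences between tables was not tested.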

Other observations

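Long noncoding RNA genes that the rule left out for their transcript labels were in several cases higher than most members. Gas5, the host of many small nucleolar RNAs, had 863 ± 65.0 TPM (SD, n = 4). Tug1 had 145 ± 30.2 TPM, Snhg5 had 101 ± 12.6, Zfas1 had 101 ± 17.7 and Snhg1 had 92.5 ± 12.3 TPM. Flicr, an RNA transcribed at the Foxp3 locus and known from regulatory T cells, had 4.91, 4.43, 4.15 and 3.62 TPM in libraries 1 to 4. Of the 32 listed genes with other labels, 18 reached 2 TPM in each library.

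By a threshold of 2 TPM on the reads table as deposited, before scaling, 277 lincRNA genes would be members. Of these, 148 are among the 175 here (84.6% of these 175 and 53.4% of the 277). Scaling multiplies these TPM by 1.56 to 1.71, so the threshold is not the same as in the gene table.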
